A study of Mus musculus with 2 samples.

Results

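Proliferating luminal cells of the hARtg mouse prostate were taken as cells with RNA of the luminal genes Epcam and Krt8, a value under 1 for the basal keratin Krt5, no RNA of the leukocyte gene Ptprc, and RNA of at least 5 of 8 proliferation genes. The 8 genes were Mki67, Top2a, Ccnb1, Cdk1, Birc5, Ube2c, Cenpf and Tpx2. By this rule 558 of 15742 cells were proliferating luminal cells. The tissue came from mice of the genotype R26 mTmG/hAR:Osr1 Cre/+. Osr1-Cre recombination switches on both a human androgen receptor transgene (hARtg) at the R26 locus and membrane green fluorescent protein (mGFP) in them, so both mark the Osr1 lineage. There was 1 library of prostatic intraepithelial neoplasia (PIN), from tissue of 6-month-old mice, and 1 library of prostatic adenocarcinoma (PCa), from tissue of 12-month-old mice, with no replicates and no library without the transgene. How many animals each library held is not given in the sources used here. The cells carried 1 of 2 barcode endings, and the labels do not say which ending belongs to which tissue, so the cells are described as barcode set 1 and barcode set 2 and none was assigned to PIN or PCa. The study states a number of cells for each tissue, and the sizes of the sets lie at or very near those numbers, but a cell number is not a label and was not used to assign them. Of the 3121 luminal cells that passed the gate in set 1, 34 were proliferating, and of the 7701 in set 2, 524 were.

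A dividing cell copies its DNA in S phase, checks it in G2 and separates the chromosomes in mitosis (M). Genes for DNA replication are switched on around the start of S phase, largely through E2F factors, and genes for the spindle, the kinetochore and cytokinesis are switched on later, in G2 and M. Luminal cells are the secretory cells of the prostate gland, and they divide rarely in the resting adult gland.

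The promoters of the late genes are known for a CHR element (letters TTTGAA), which MuvB complexes bind, and for CCAAT boxes, which NF-Y binds. These letters were searched on both strands in the 250 bases before each gene's start in RefSeq (build GRCm38.p6), together with 2 E2F forms, TTTCCCGC and TTTGGCGC. Of the 8 genes that chose the cells, 7 had a window, of which 4 held a CHR, 6 held a CCAAT box and 0 held an E2F form. Of the 4 that held both a CHR and a CCAAT box, 3 are shown first, and Mki67 is not shown. They are followed by Mcm5 and Rrm2, which are replication genes described below. Each is written 5′ to 3′ on the gene's own strand, with CHR, CCAAT and E2F matches in capitals.
Top2a, chr11:99024190-99024439, minus strand: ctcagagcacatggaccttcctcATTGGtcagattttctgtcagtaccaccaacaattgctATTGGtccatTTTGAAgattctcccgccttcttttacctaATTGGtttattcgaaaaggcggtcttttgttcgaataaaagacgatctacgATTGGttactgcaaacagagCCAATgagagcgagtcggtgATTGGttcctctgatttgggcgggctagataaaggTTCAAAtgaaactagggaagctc
Ube2c, chr2:164769679-164769928, plus strand: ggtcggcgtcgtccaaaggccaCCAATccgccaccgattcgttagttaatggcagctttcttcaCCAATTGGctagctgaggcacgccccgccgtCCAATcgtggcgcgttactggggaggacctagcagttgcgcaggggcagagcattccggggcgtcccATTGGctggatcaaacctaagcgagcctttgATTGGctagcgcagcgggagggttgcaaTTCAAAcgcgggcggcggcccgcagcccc
Cdk1, chr10:69352913-69353162, minus strand: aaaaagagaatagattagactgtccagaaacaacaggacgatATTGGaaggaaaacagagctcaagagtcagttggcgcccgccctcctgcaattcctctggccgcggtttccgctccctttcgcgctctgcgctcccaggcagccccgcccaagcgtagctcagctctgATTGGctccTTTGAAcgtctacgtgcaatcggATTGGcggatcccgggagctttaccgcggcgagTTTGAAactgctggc
Mcm5, chr8:75109259-75109508, plus strand: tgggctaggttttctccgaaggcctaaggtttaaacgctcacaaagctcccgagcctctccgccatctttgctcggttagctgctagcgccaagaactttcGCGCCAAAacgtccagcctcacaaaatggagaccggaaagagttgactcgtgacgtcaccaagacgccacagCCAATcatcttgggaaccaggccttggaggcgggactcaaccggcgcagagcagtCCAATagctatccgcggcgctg
Rrm2, chr12:24708004-24708253, plus strand: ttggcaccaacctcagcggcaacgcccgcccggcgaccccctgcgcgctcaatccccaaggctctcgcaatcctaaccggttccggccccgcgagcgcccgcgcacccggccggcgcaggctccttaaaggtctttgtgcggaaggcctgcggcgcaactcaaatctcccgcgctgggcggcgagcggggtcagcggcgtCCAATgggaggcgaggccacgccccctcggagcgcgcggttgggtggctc

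The Top2a window held 2 CHR matches and 6 CCAAT boxes, and the Ube2c window held 1 and 6, a pair of the CCAAT matches of Ube2c overlapping each other. The Mcm5 window held 1 E2F form and 2 CCAAT boxes, and the Rrm2 window held 1 CCAAT box and 0 matches to the other letters. Among 41 windows of the G2/M list described below, 16 (39.0%) held a CHR, 30 (73.2%) a CCAAT box and 2 (4.88%) an E2F form. Among 25 windows of the S list, 4 (16%) held a CHR, 19 (76%) a CCAAT box and 6 (24%) an E2F form. In 6749 windows of all genes compared in both barcode sets, the shares were 10.1%, 35.2% and 2.62%, and in all 32851 RefSeq windows they were 15.99%, 33.8% and 1.30%. A CHR overlapped a CCAAT box in 0 windows of either list. These are matches of letters only, not tested binding sites.

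The genes that chose the cells describe them and are not a result. Ube2c, which hands ubiquitin to the anaphase-promoting complex, had the highest summed level of the 8, at 335 CPM (UMIs, the molecules counted, per 1000000 UMIs of the cells) in set 1 and 347 CPM in set 2. Birc5, the survivin subunit of the chromosomal passenger complex, was detected in 33 of 34 and 515 of 524 proliferating cells. The nuclear proliferation marker Mki67 was detected in 97.1% of them in set 1 and 89.9% in set 2, and the DNA topoisomerase Top2a in 91.2% and 79.8%. Krt8 stood at 6333 and 7439 CPM and Epcam at 2486 and 481 CPM in the proliferating cells, but both are part of the gate. Krt18, a luminal keratin that the rule did not use, stood at 4999 and 6483 CPM. A Krt5 UMI was seen in 6 of 34 and 13 of 524.

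Most gated cells held none of the 8 genes, 2665 (85.4%) in set 1 and 5748 (74.6%) in set 2. Cells with 4 of the 8, just outside the rule, numbered 4 and 94, and cells with 5, just inside it, numbered 4 and 95. In set 2 the G2/M list summed to 1949 CPM just outside and 2241 CPM just inside, and the S list to 951 and 1136 CPM, so the rule cut through a gradual rise rather than a gap. In set 1 the values were 2104 and 3248 CPM for the G2/M list and 3372 and 2801 CPM for the S list, each over 4 cells. Cells with all 8 genes numbered 15 in set 1 and 208 in set 2, and were the most frequent among cells with 5 or more.

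**Figure D1:**
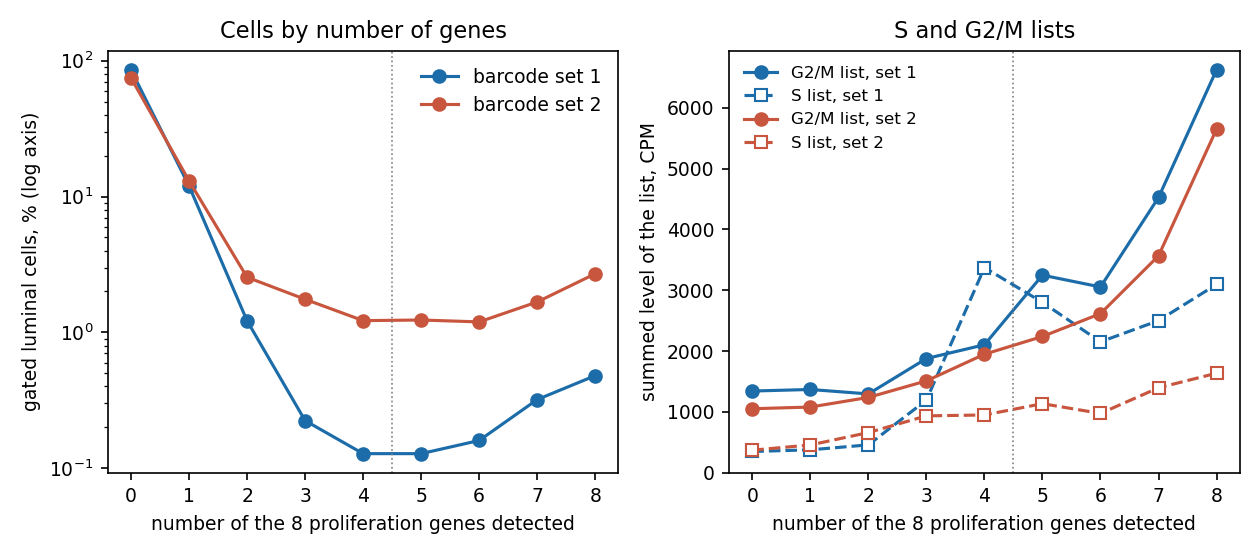
Left, percentage of gated luminal cells (log axis) by the number of the 8 proliferation genes detected, for barcode set 1 (blue) and set 2 (red); right, summed CPM of the G2/M list (filled circles) and S list (open squares) by the same number. The dotted line marks the rule of 5 or more; the G2/M list is highest in cells with all 8 genes, at 6622 and 5647 CPM.

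The proliferating share of gated luminal cells was 1.09% in set 1 (95% interval 0.756 to 1.52, 34 of 3121 cells) and 6.80% in set 2 (6.25 to 7.39, 524 of 7701 cells). Intervals of shares are exact Clopper-Pearson intervals, those of CPM are exact Poisson intervals, and all of them cover counting error only, since each set counts as 1 sample and no test between the sets was possible. The share depended on depth in both sets. Among cells under 10000 UMIs it was 0.375% and 0.646%, with intervals that overlap. Among cells with 40000 UMIs or more it was 2.35% (18 of 766) in set 1 and 19.7% (211 of 1071) in set 2, and these intervals did not overlap. With every cell thinned to 5000 UMIs, which left out 86 and 332 shallower cells, the share was 0.494% (0.277 to 0.814) and 1.91% (1.61 to 2.25). Set 2 was higher at both depths.

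**Figure D2:**
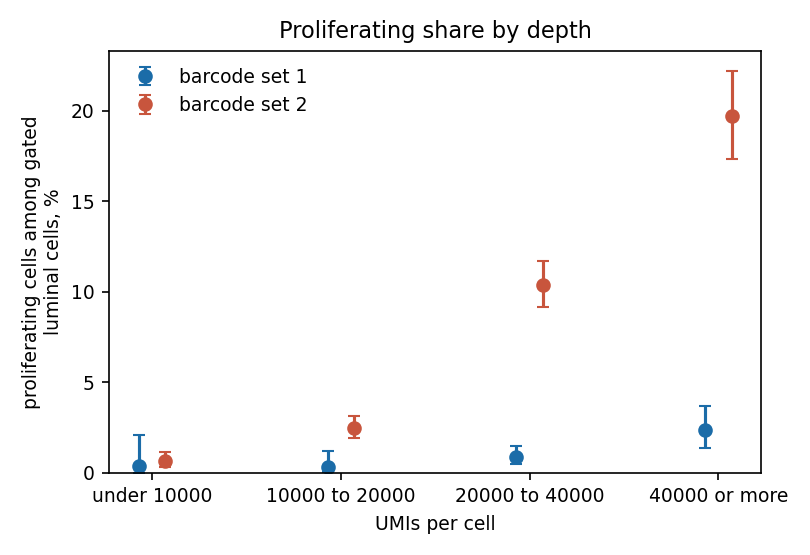
Percentage of gated luminal cells that were proliferating, by UMIs per cell, in barcode set 1 (blue) and set 2 (red), with exact binomial 95% intervals. The share is highest in the deepest cells of both sets, and the intervals of the sets are apart from 10000 UMIs upward.

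Other gates of the same libraries held cells with 5 or more of the 8 genes too. Among Krt5-high epithelial cells the share was 0.288% (5 of 1738) in set 1 and 2.19% (6 of 274) in set 2, and among cells with Ptprc and no Epcam it was 2.97% (21 of 706) and 2.38% (4 of 168). The median depth of the latter was 3803 and 7482 UMIs, against 27211 and 17435 in the luminal gate. After thinning to 5000 UMIs their shares were 6.60% (13 of 197 cells, with 509 left out) and 1.63% (2 of 123). In set 1 the luminal share was thus below that of the Ptprc cells at either depth, and in set 2 the thinned intervals overlapped. Cells with both Epcam and Ptprc, which the luminal gate excludes, held 17 of 413 (4.12%) in set 1 and 1 of 70 in set 2.

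Proliferating cells were deep, but the rule itself favours deep cells, since a deeper cell shows more genes. They held a median of 40674.5 UMIs in set 1 and 35860.5 in set 2, against 26139 and 14963 in gated cells with none of the 8 genes. When the 8 genes were counted after thinning to 5000 UMIs, cells with 3 or more had median depths of 40912 and 29301 UMIs before thinning. Cells with none had 27483.5 and 17202. Each proliferating cell was therefore compared with up to 3 cells of its set. These held none of the 8 genes and were nearest in UMIs, 102 and 1572 comparison cells in all, with medians of 40686 and 34586 UMIs. In set 2 there were too few very deep cells, and the upper quartile was 51869 UMIs in the proliferating and 43130 in the comparison cells. The median number of genes was 6010 and 5404 in proliferating cells against 5674.5 and 5049.5, and after thinning it was 2001 and 1856 against 1912 and 1780. The mitochondrial share was 3.50% and 5.03% against 4.07% and 5.23%. A doublet score over 0.25 was found in 0 of 34 and 7 of 524 (1.34%) proliferating cells, and in 0 of 102 and 56 of 1572 (3.56%) comparison cells. Of 67 barcodes present in both sets, 0 proliferating cells of set 1 and 6 of set 2 held one.

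Outside the 8 genes, the proliferating cells carried higher RNA of both the late and the early programme. Genes with 10 CPM or more on either side were compared, by the log2 ratio of (CPM + 10), and 2-fold or more is the mark used throughout, as a size and not a test. Of 8033 genes in set 1, 394 (4.9%) were 2-fold or more higher in the proliferating cells and 101 (1.26%) as much lower. Of 7344 genes in set 2, 186 (2.53%) were higher and 59 (0.803%) lower. Of 6758 genes compared in both sets, 169 (2.5%) were higher in both and 10 (0.148%) lower in both. The median over all genes was 0.06 in set 1 and 0.02 in set 2. The cells were chosen on genes of the same programme, so the counts of cell cycle genes that follow are a description.

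Of the G2/M list, a set of genes in common use for scoring cell cycle phase without the 8 rule genes, 39 of 43 compared genes were 2-fold or more higher in set 1 and 36 of 45 in set 2, with medians of 1.81 and 1.42. Cenpa, the histone H3 variant that marks centromeres, stood at 133 CPM (115 to 154) in set 1 against 1.20 CPM (0.390 to 2.80), and at 163 CPM (158 to 169) in set 2 against 1.35 CPM (1.06 to 1.70). Its log2 ratios were 3.68 and 3.93, the highest of the list in both sets. Ccnb2, a mitotic cyclin, stood at 88.5 against 1.92 CPM and 100.5 against 0.933 CPM (log2 ratios 3.05 and 3.34). After thinning Ccnb2 was found in 35.3% and 39.1% of proliferating cells, in 0.980% and 0.321% of comparison cells and in 6.09% and 2.44% of cells with Ptprc and no Epcam. Cenpa was found in 54.3% and 22.8% of the latter, against 32.4% and 49.9% of the proliferating cells, so its RNA was not limited to dividing luminal cells. The genes of the list with the lowest mean ratio included Ctcf, a chromatin insulator protein, at 0.77 and 0.54, and G2e3, a ubiquitin ligase, at 0.24 and 0.59. Thus 43 of 43 and 45 of 45 compared genes lay above 0.

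The machinery of mitosis was higher in most of its parts. Of the kinetochore and checkpoint list, 23 of 25 genes in set 1 and 16 of 21 in set 2 were 2-fold or more higher. The kinetochore gene Spc24 stood at 195 against 1.92 CPM in set 1 and 40.6 against 0.732 CPM in set 2, and its log2 ratio was 4.10 in set 1 and 2.24 in set 2. Zwint, another kinetochore gene, stood apart from its list at 234 against 194 CPM and 116 against 147 CPM (0.26 and −0.32). Of spindle motors and cytokinesis genes, 19 of 20 were higher in each set. Racgap1, the GTPase-activating subunit of centralspindlin, stood at 107 against 0.240 CPM and 109 against 0.238 CPM. Of mitotic kinases and phosphatases, 10 of 12 and 11 of 13 were higher, among them Pbk (3.38 and 3.15) and Aurkb (2.34 and 2.00), while Wee1, which restrains Cdk1, was at 0.38 and 0.23.

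Among condensin, cohesin and separase genes, 11 of 15 were higher in set 1 and 7 of 15 in set 2. The condensin subunits Smc2 (3.90 and 2.70) and Smc4 (3.18 and 2.75) led, and the cohesin subunits Stag1 (0.82 and 0.19) and Stag2 (0.32 and −0.04) were at the lower end. The anaphase-promoting complex list split in the same manner, with 6 of 17 and 2 of 15 genes higher and medians of 0.29 in each set. Its activator Cdc20 stood at 45.4 against 0.720 CPM in set 1 and 125 against 1.15 CPM in set 2, and the chain-extending enzyme Ube2s at 920 against 328 and 853 against 316 CPM. The core subunit Cdc26 lay at −0.22 and 0.18. The tubulin list, 4 of 11 higher in each set, was led by Stmn1, which destabilises microtubules, at 1074 CPM (1020 to 1130) against 20.4 CPM (16.3 to 25.2) in set 1 and 419 CPM (410 to 429) against 16.7 CPM (15.6 to 17.8) in set 2. Stmn1 was the cell cycle gene with the highest ratio in both sets (5.16 and 4.01), and Tubb5 followed at 904 against 81.6 and 683 against 81.6 CPM.

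**Figure D3:**
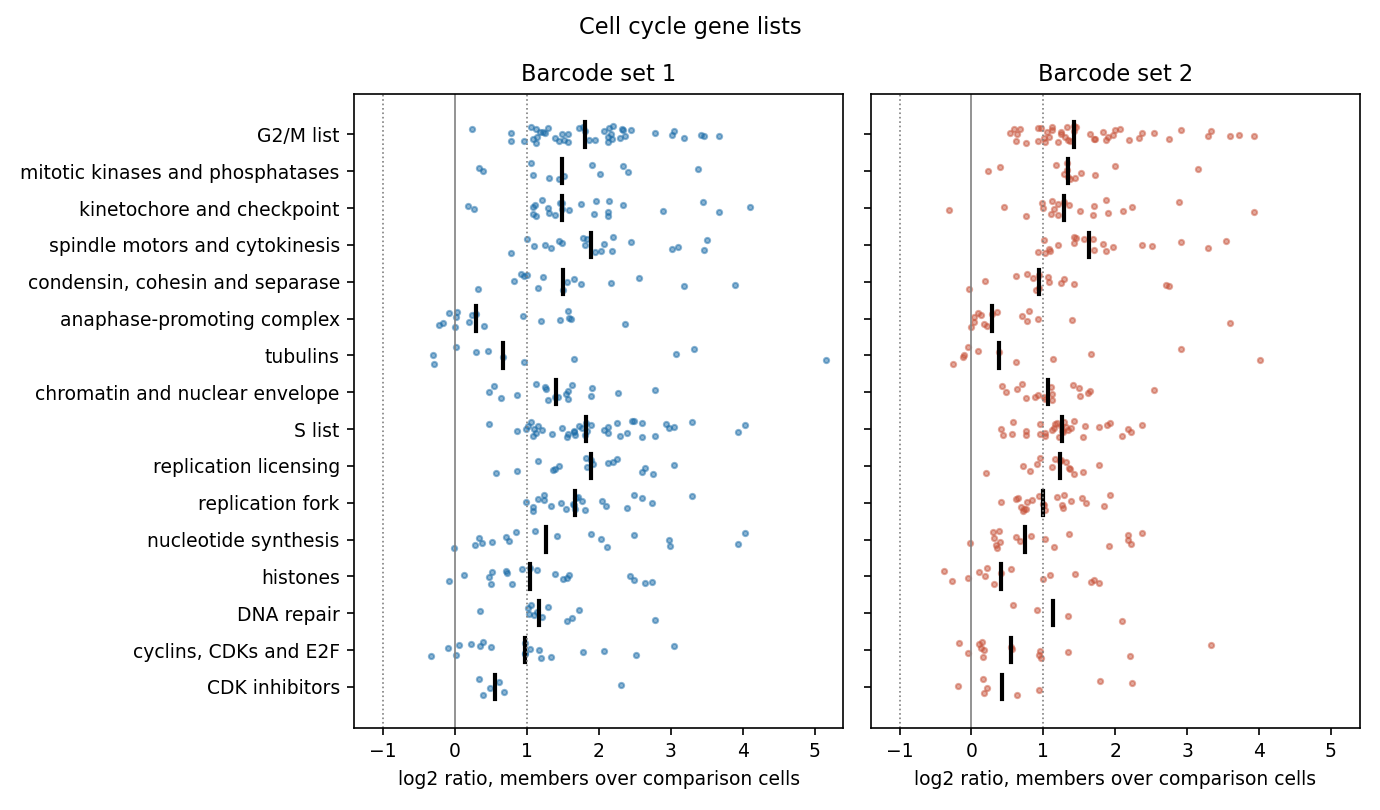
Log2 ratio of (CPM + 10) in proliferating over comparison cells, for each compared gene (points) of 16 cell cycle lists, with list medians (black bars), in barcode set 1 (left) and set 2 (right). Dotted lines mark 2-fold. The S list median is 1.82 in set 1 and 1.26 in set 2. The anaphase-promoting complex, tubulin and CDK inhibitor lists, and the list of cyclins, CDKs and E2F, have medians under 1 in both sets.

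Genes of DNA replication were higher too, and more so in set 1. Of the S list, 37 of 40 genes in set 1 and 24 of 32 in set 2 were 2-fold or more higher, with medians of 1.82 and 1.26. Rrm2, the regulated subunit of ribonucleotide reductase, stood at 212 CPM (189 to 238) against 3.60 CPM in set 1 and 94.8 CPM (90.6 to 99.2) against 10.2 CPM in set 2. Its log2 ratio was 4.03 and 2.37, although 1 cell held 32.5% of the Rrm2 UMIs of set 1. Tyms, which makes thymidylate, stood at 245 against 6.72 CPM and 112 against 16.1 CPM. Mcm5, a subunit of the replicative helicase whose promoter window is shown above, stood at 78.5 against 0.720 CPM and 38.8 against 4.30 CPM (3.04 and 1.77). Uhrf1, which maintains DNA methylation at the fork, was at 3.30 and 1.93.

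By role, 15 of 17 replication licensing genes were higher in set 1 and 10 of 15 in set 2, and 22 of 23 and 11 of 22 replication fork genes. Of nucleotide synthesis genes, 10 of 18 and 8 of 18 were higher, with Cad (0.37 and −0.02) and Atic (−0.01 and 0.35), of the pyrimidine and purine routes, at the lower end. Of histone genes, 10 of 19 and 6 of 15 were higher. The variant H2afz stood at 2909 against 459 CPM in set 1 and 2013 against 582 CPM in set 2, while the linker histone Hist1h1c was at 323 against 194 and 191 against 252 CPM. Poly(A)-selected 3′ libraries read few of the replication-dependent histone messages, which lack a poly(A) tail. Of chromatin and nuclear envelope genes, 14 of 18 and 11 of 18 were higher, among them Hmgb2 (2.78 and 2.53) and the Polycomb methyltransferase Ezh2 (2.26 and 1.62). The repair list held 11 of 12 and 2 of 4 higher genes.

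Cyclins, cyclin-dependent kinases and E2F factors were uneven, with 8 of 19 genes 2-fold or more higher in set 1 and 3 of 15 in set 2. The S and G2 cyclin Ccna2 stood at 47.5 CPM against a sum of 0 UMIs in set 1 and at 37.0 against 0.219 CPM in set 2. Cyclin E1 (Ccne1), of the G1 to S step, stood at 36.7 against 3.60 CPM and 11.4 against 1.12 CPM, and its log2 ratios were 1.78 and 0.95. Cyclin D1 (Ccnd1), of early G1, stood at 120 CPM (103 to 140) against 48.0 CPM (41.6 to 55.1) in set 1, and at 284 CPM (277 to 292) against 251 CPM (246 to 255) in set 2, so it passed 2-fold in set 1 (1.17) and not in set 2 (0.18). Myc lay at 232 against 198 CPM and 244 against 277 CPM. Among CDK inhibitors, Cdkn3, a phosphatase that acts on Cdk1 and Cdk2, was at 2.31 and 2.23 and Cdkn2d at 0.61 and 1.79, while Cdkn1a stood at 402 against 317 and 254 against 225 CPM. Of the 15 p53 target genes in the file, 13 and 15 could be compared and 0 passed 2-fold in either direction.

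Cell by cell, the G2/M list summed to a lowest, median and highest level of 1674, 4893 and 10664 CPM in the proliferating cells of set 1, against 109, 1327 and 2641 CPM in the comparison cells. In set 2 the values were 984, 3923 and 17406 CPM against 166, 1014 and 4455 CPM. The S list had medians of 2020 and 1087 CPM in proliferating cells and 314 and 323 CPM in comparison cells, and ranged from 427 to 7899 and from 142 to 8616 CPM among the proliferating cells. The ranges of the groups overlapped for both lists in both sets. The S sum exceeded the G2/M sum in 8 of 34 proliferating cells of set 1 (23.5%) and 18 of 524 of set 2 (3.44%), against 1 of 102 (0.980%) and 22 of 1572 (1.40%) comparison cells. The G2/M list sums higher than the S list in most cells of both groups, so this count does not place a cell in a phase.

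Genes of the S list were also counted cell by cell at equal depth. After thinning to 5000 UMIs, at least 5 genes of the S list were detected in 28 of 34 proliferating cells of set 1 (82.4%) and 278 of 519 of set 2 (53.6%). The same was found in 57 of 2582 gated cells with none of the 8 genes (2.21%) in set 1 and in 213 of 5442 (3.91%) in set 2, and in 22 of 419 (5.25%) and 211 of 1408 (15.0%) cells with 1 to 4 of them. A count of 5 S genes was therefore also reached by some cells with none of the 8 genes, whose median was 1 S gene in both sets, against 8 and 5 in the proliferating cells.

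**Figure D4:**
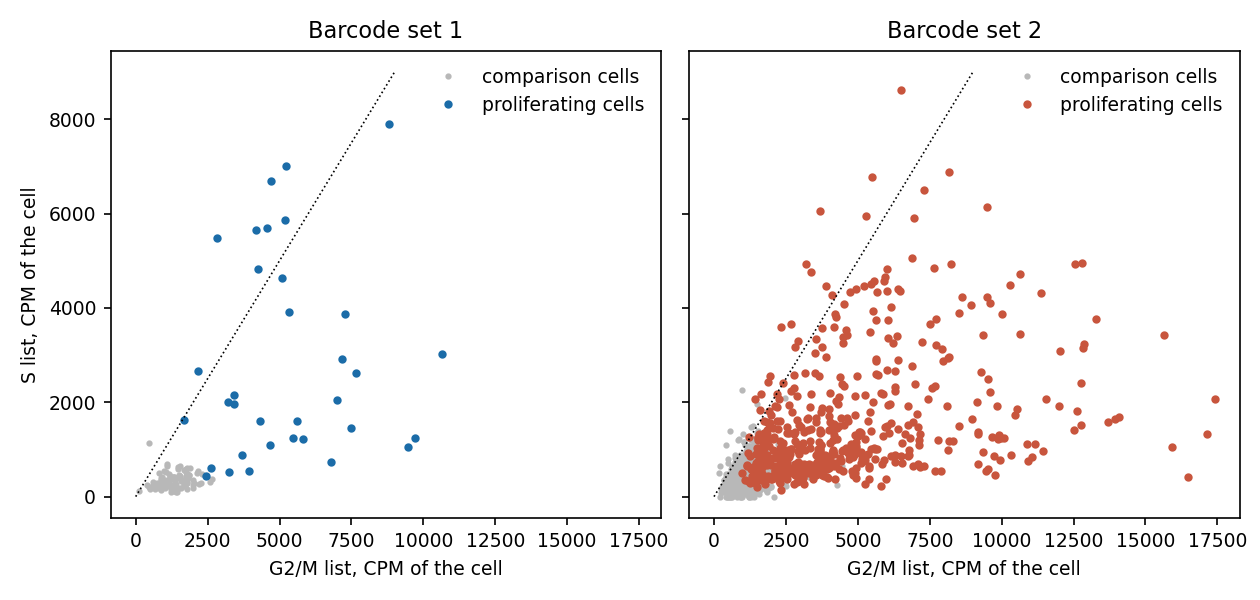
Summed CPM of the S list against that of the G2/M list in each proliferating cell (coloured) and each comparison cell (grey), in barcode set 1 (left) and set 2 (right); the dotted line marks equal sums. Above the line lie 8 of 34 proliferating and 1 of 102 comparison cells of set 1, and 18 of 524 and 22 of 1572 of set 2, and the clouds of proliferating and comparison cells touch in both sets.

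The transgene differed from the cell cycle in that its position relative to the comparison cells was not alike in the sets. Going by name alone, the feature ARQ is given here as hARtg and EGFP as mGFP. hARtg was at 28.1 CPM (19.96 to 38.4) in the proliferating and 163 CPM (151 to 176) in the comparison cells of set 1, a log2 ratio of −2.19. In set 2 it stood at 1399 CPM (1383 to 1416) and 1488 CPM (1478 to 1499), a log2 ratio of −0.09. At least 1 hARtg UMI was seen in 35.3% of proliferating and 55.9% of comparison cells of set 1, and in 99.4% and 97.1% in set 2. After thinning the shares were 8.82% and 25.5% in set 1 and 96.3% and 94.1% in set 2, against 4.57% and 18.7% in Ptprc cells, whose median depth was 3803 and 7482 UMIs. The interval of the thinned share in the set 1 members (1.86 to 23.7%) held the share of the Ptprc cells. Those cells were shallower before thinning, so their share does not set the background of the proliferating cells.

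At least 5 hARtg UMIs were found in 2 of 34 proliferating cells of set 1 (5.88%, 0.720 to 19.7) against 25 of 102 comparison cells (24.5%, 16.5 to 34.0), and in 507 of 524 (96.8%) against 1474 of 1572 (93.8%) in set 2. Seen the other way round, 31 of 2284 gated cells of set 1 without a hARtg UMI after thinning were proliferating (1.36%, 0.924 to 1.92), against 3 of 751 with at least 1 (0.399%, 0.0825 to 1.16). In set 2, 19 of 407 without one were proliferating (4.67%, 2.83 to 7.19), against 500 of 6962 with one (7.18%, 6.59 to 7.81). The intervals overlapped in both sets. mGFP stood at 490 against 1100 CPM in set 1, where 3 cells held 96.5% of the UMIs of the proliferating cells and the medians per cell were 16.2 and 26.8 CPM. With comparison cells matched on the number of hARtg UMIs as well as on depth, its log2 ratio in set 1 was 1.10 in place of −1.15. In set 2 mGFP was high in both groups, at 8810 and 9972 CPM. Osr1 had 0 UMIs in set 1 and 0.354 against 0.329 CPM in set 2.

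The androgen-dependent secretory list, mostly products of the resting luminal cell, had the lowest median of the lists in set 2, at −2.53. There 6 of 9 genes were 2-fold or more lower, against 0.803% of all genes. In set 1 the median was −1.07. There 4 of 8 genes were lower, against 1.26% of all genes, and 2 were higher, against 4.9%. Among all genes compared in both sets, 5 (0.074%), Tgm4 of this list among them, were 2-fold or more higher in set 1 and as much lower in set 2. For Tgm4, 3 cells held 57.6% of the UMIs of the proliferating cells of set 1. In set 2 the top 3 cells held 12.8% in the proliferating and 5.39% in the comparison cells. Probasin (Pbsn) stood at 40.8 CPM (38.1 to 43.7) in the proliferating cells of set 2 and 474 CPM (468 to 480) in the comparison cells, and at 3458 against 2749 CPM in set 1. The median cell held 0 CPM of Pbsn in both groups of set 2, while in set 1 the medians were 908 and 40.1 CPM. Thinned shares of cells with Pbsn were 5.20% against 15.8% in set 2 and 64.7% against 41.2% in set 1. Of the Ptprc cells, 5.69% in set 2 and 21.8% in set 1 also held it. The share in the proliferating cells of set 2 was thus near that of the Ptprc cells. Whether it was background cannot be told, because the Ptprc cells were shallower before thinning.

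Msmb, a secreted beta-microseminoprotein, was lower in both sets, at 4545 against 10472 CPM in set 1 and 6.98 against 121 CPM in set 2, where 3 comparison cells held 57.0% of its UMIs. After thinning Msmb was found in 35.3% of the proliferating and 65.7% of the comparison cells of set 1, and in 45.2% of the Ptprc cells. The first share was thus no higher than that of the shallower Ptprc cells, but the summed level was, since the Ptprc cells of set 1 stood at 173 CPM. Of the Msmb UMIs of the proliferating cells of set 1, 3 cells held 60.4%. The spermine-binding protein gene Sbp stood at 34.5 against 1380 CPM in set 1 and 444 against 3366 CPM in set 2, but the medians per cell were 18.9 and 0 CPM in set 1 and 60.7 and 65.4 CPM in set 2. Of the Sbp UMIs of the comparison cells, 3 cells held 89.6% in set 1 and 21.9% in set 2. The trypsin inhibitor Spink1 was at 1.44 against 1877 CPM and 77.3 against 494 CPM, and 3 comparison cells held 88.6% of its UMIs in set 1. Sums and typical cells thus gave different pictures for Sbp and Spink1. Crym, which this list also counted, was in contrast 2-fold or more higher in set 1, at 33.8 against 9.60 CPM (1.16). In set 2 it was near 0, at 692 against 722 CPM (−0.06). In set 1, 3 cells held 55.3% of the 47 Crym UMIs of the proliferating cells. Of the wider androgen receptor target list, 3 of 8 genes were 2-fold or more lower in set 1 and 1 of 8 in set 2. The shares over all genes were 1.26% and 0.803%. Fkbp5, of this list, was at −1.50 and −0.31. The seminal vesicle genes had a median of −1.48 in set 2, with 6 of 8 genes lower, against 0.803% of all genes. For Svs5, 1 cell held 69.6% of the UMIs of the proliferating cells, and 3 cells held 48.5% of those of the comparison cells. For Svs4, 3 comparison cells held 37.4%, and for Svs2, 1 comparison cell held 47.0%. Thinned shares were 8.48% against 10.2% for Svs5, 20.6% against 21.7% for Svs4 and 2.31% against 4.56% for Svs2. The medians per cell of these 3 genes were 0 CPM in both groups. In set 1 the seminal vesicle genes had 0 UMIs in both groups.

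**Figure D5:**
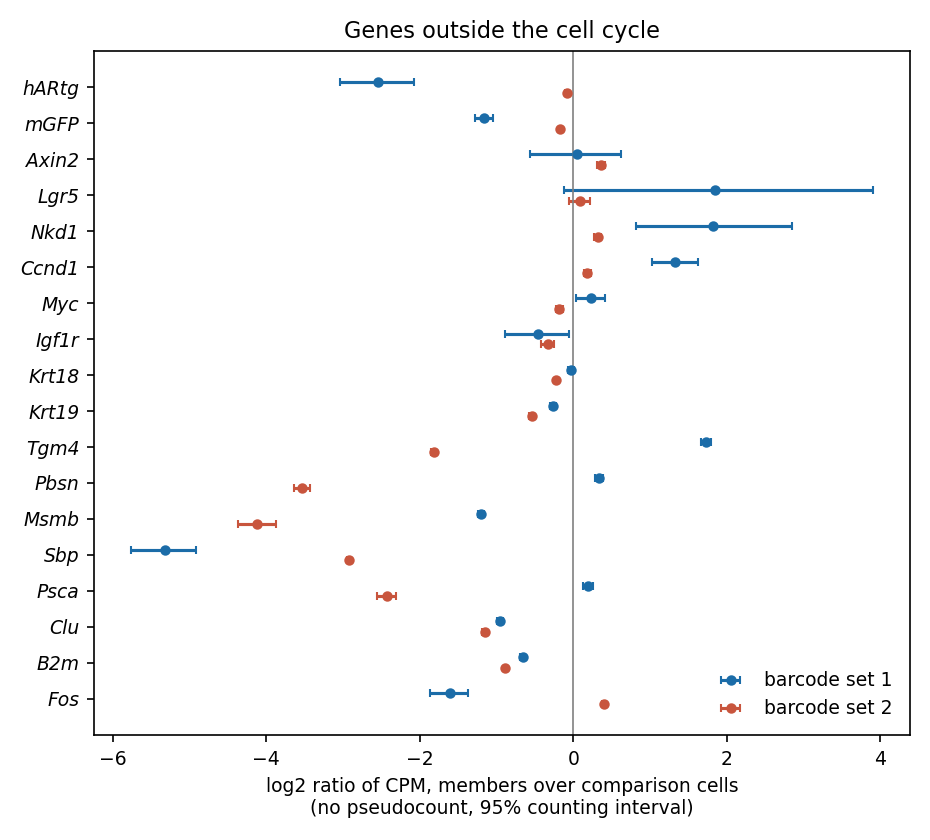
Log2 ratio of CPM (no pseudocount) in proliferating over comparison cells for 18 genes, in barcode set 1 (blue) and set 2 (red). The 95% intervals cover counting error only. Most of the genes lie outside the cell cycle lists, but Ccnd1 and Myc are described above with the cyclins. hARtg is lower in set 1 and near 0 in set 2, Tgm4 lies on opposite sides in the sets, and Axin2 lies near 0 in set 1.

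Wnt target genes, a class that β-catenin and TCF switch on, were near the comparison cells. Of 12 compared in set 1, 1 was 2-fold or more higher (Ccnd1), and of 18 in set 2, 0 were, with medians of 0.11 and 0.16. The shares over all genes were 4.9% and 2.53%. Axin2, a feedback inhibitor of the pathway, stood at 24.5 CPM (16.9 to 34.2) against 23.8 CPM (19.3 to 28.9) in set 1 and at 215 CPM (209 to 222) against 168 CPM (165 to 172) in set 2. Nkd1, another inhibitor, stood at 14.4 against 4.08 and 271 against 218 CPM. Its log2 ratio in set 1 was 0.79, with a pseudocount near its level, and reached 1.60 in the highest alternative. There 1 cell held 40% of the 20 Nkd1 UMIs of the proliferating cells. Lgr5 stood at 29.2 against 27.7 CPM in set 2 and 6 against 5 UMIs in set 1. The levels of Axin2 and Nkd1 themselves were thus higher in set 2 in both groups. In the IGF axis 0 genes of 15 and 13 were 2-fold higher. Lower were 2 and 0, against 1.26% and 0.803% of all genes, and the medians were −0.13 and −0.20. The receptor Igf1r stood at 44.6 against 61.7 CPM and 78.4 against 98.8 CPM.

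Luminal identity genes kept within 2-fold of the comparison cells in both sets, with 0 of 12 and 0 of 11 past it and medians of −0.10 and −0.39. Krt18 stood at 4999 against 5087 CPM and 6483 against 7587 CPM, and the pioneer factor gene Foxa1 at 127 against 126 and 71.4 against 79.5 CPM. Of the proximal or progenitor list, 4 of 8 genes were 2-fold or more lower in set 2, against 0.803% of all genes. Among these 4 were Psca (30.6 against 165 CPM) and Ly6a, which encodes Sca-1 (333 against 863 CPM). In set 1 Psca was at 2150 against 1884 CPM, with 90.2% of the UMIs of the proliferating cells in 1 cell. Clu, clusterin, was lower in both sets, at 5315 against 10287 CPM and 559 against 1245 CPM, with medians per cell of 1178 against 6113 and 167 against 310 CPM. In set 2 the α-defensin genes and the pair Mt4 and Gulo had medians of −0.01 and 0.13, Defa20 standing at 436 against 415 CPM.

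Outside all cell cycle lists, the 10 genes with the highest mean ratio among those past 2-fold in both sets were 2810417H13Rik, Ccdc34, Knstrn, Nrm, Zfp367, Asf1b, Diaph3, 2700094K13Rik, Dnajc9 and Hat1. 2810417H13Rik stood at 266 CPM (239 to 294) against 0.720 CPM in set 1 and 76.8 CPM (72.9 to 80.7) against 0.658 CPM in set 2. Several of the others work at the chromatin or the spindle, such as Asf1b, a histone chaperone (33.8 CPM against 0 UMIs, and 30.1 against 1.55 CPM), Hat1, a histone acetyltransferase (143 against 19.7 and 90.1 against 29.7 CPM), and Knstrn, a kinetochore and spindle protein (43.9 CPM against 0 UMIs, and 58.3 against 1.57 CPM). The 10 genes lower in both sets were Spink1, Sbp, Gpx3, Gm12888, Msmb, 9530002B09Rik, Krt14, Ly6c1, Sprr2f and Ctsl. Some of these sums rest on few comparison cells. For Gm12888, 3 comparison cells held 85.1% of the UMIs in set 1 and 84.9% in set 2. After thinning, Sprr2f was found in 0.980% and 0.642% of comparison cells. Gpx3, a secreted glutathione peroxidase, stood at 5.76 against 189 and 61.5 against 187 CPM, with medians per cell of 0 CPM throughout. Its thinned shares were 5.88% against 19.6% and 12.7% against 23.1%, and 3 comparison cells of set 1 held 48.9% of its UMIs. The lysosomal protease gene Ctsl stood at 243 against 603 and 27.1 against 69.9 CPM.

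Markers of other cell types were checked as whole lists. The leukocyte list of 10 genes summed to 4.32 CPM in the proliferating cells of set 1, where 5 of its genes had 0 UMIs (Laptm5, Coro1a, Tyrobp, Cd3g and Lyz2), against 9.12 CPM in comparison cells. In set 2 it summed to 10.4 against 7.85 CPM, and 0 of its genes reached 10 CPM. The smooth muscle list summed to 5.04 against 5.28 and 8.15 against 11.9 CPM, the endothelial list to 5.76 against 4.08 and 45.5 against 50.3 CPM, and the neuroendocrine list to 0 UMIs in the proliferating cells of set 1 and 0.708 against 1.52 CPM in set 2. The fibroblast list summed to 40.3 against 204 CPM in set 1 and 244 against 215 CPM in set 2, nearly all of it Dcn, while 5 of its 7 genes, collagens included, had 0 UMIs in the proliferating cells of set 1. The basal list, without Krt5, summed to 806 against 1064 CPM in set 1 and 17.8 against 82.4 CPM in set 2, with Trp63 at 0 UMIs in the proliferating cells of set 1.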

How the data were processed

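Single cells of PIN and PCa tissue were profiled with 10x Genomics 3′ v2 chemistry. Cell Ranger 3.1.0 (version from the submitters’ processing notes) was used by the authors to count UMIs against mm10 with the hARtg and mGFP sequences added, filtered cells and normalised with Seurat. Each deposited value is on a natural log scale: a gene’s share of its cell’s UMIs, times 10000, plus 1, then ln. Their back-transform gave whole UMIs for 100% of values above 0 (tolerance 0.001). The lowest number of genes in a cell was 1002 and the highest mitochondrial share 9.99%. Set 1 held 6332 cells (median 17235 UMIs) and set 2 held 9410 (median 14824.5), over 19320 features.

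UMIs were summed over the proliferating cells and over the comparison cells of each set and scaled to CPM. The comparison cells, 3 per proliferating cell, were matched without reuse, deepest first. Log2 ratios used a pseudocount of 10 CPM, genes under 10 CPM on both sides were left out, and so were the 12 rule and gate genes. Thinning drew 5000 UMIs per cell. Scrublet in scanpy 1.11.5 gave doublet scores, and its limit of 0.25 had been set after scores were seen; no cell was removed by it. Python 3.11.15, numpy 2.4.6, scipy 1.17.1, pandas 2.3.3 and matplotlib 3.10.9 were used, and the contrast was tested on simulated data. No p-values were computed, because each set counts as 1 sample and cells are not replicates. The planned comparison of PIN with PCa was not made.

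Named genes were the rule and gate genes, hARtg, mGFP and Osr1, the genes with the highest and lowest mean ratio of each list, genes 2-fold on opposite sides in the sets, and the 10 highest and 10 lowest outside the cell cycle lists. Other genes were named for their role after their values were seen, such as Myc, Cdkn1a, Axin2, Lgr5, Igf1r, Pbsn, Msmb, Krt18, Foxa1, Clu, Defa20, Svs5 and Aldoa. The cells and lists were chosen with earlier results of these data known. Overlapping or antisense genes could not be told apart here. Some genes are not reported here. Promoter windows came from RefSeq. Alternatives changed the rule, the Krt5 limit, the matching, the weighting of cells, the scaling, the pseudocount, the filter, the depth and the doublets.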

Additional observations from a re-analysis of the deposited data

Results flagged for a closer look

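Tgm4, a prostate transglutaminase, was 2-fold or more on opposite sides in the barcode sets, with a log2 ratio of 1.72 in set 1 (2791 against 840 CPM) and −1.79 in set 2 (305 against 1076 CPM). The medians per cell were 91.5 against 32.7 CPM in set 1 and 61.2 against 44.0 CPM in set 2, so in set 2 the median was higher in the proliferating cells while the sum was lower. Thinned shares of cells with Tgm4 were 52.9% against 34.3% in set 1 and 39.7% against 34.7% in set 2. The log2 ratio kept its sign but fell short of 2-fold in set 1, at 0.64, against all cells with none of the 8 genes, and in set 2, at −0.95, with 1 comparison cell per proliferating cell.

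Wfdc2, a secreted whey acidic protein family gene, was at 1.04 in set 1 (1787 against 863 CPM) and −1.50 in set 2 (9.97 against 46.4 CPM). In set 1, 1 cell held 35.3% of the Wfdc2 UMIs of the proliferating cells, and the medians per cell were 89.6 against 219 CPM, the reverse order of the sums. Its log2 ratio in set 1 was under 2-fold in 4 alternatives, and lowest, at 0.54, with comparison cells matched on depth and transgene class. The difference between the sets was not tested for either gene, and 5 of 6758 genes (0.074%) were past 2-fold higher in set 1 and lower in set 2.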

How the results depend on the processing

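Each set counts as 1 sample, so no interval covers differences between animals or libraries, and the 34 proliferating cells of set 1 limit every value there. Of 4760 recomputed values of 400 results, 4040 stayed within a margin (the counting interval, or 1.5 times for counts of genes) and 718 moved further. The other 2 reversed, which means that a reported value past 2-fold changed sign. In all 132 changed sign, and except for those 2 these were values short of 2-fold. Both reversals were in set 1 with comparison cells matched on depth and transgene class: Gm12888 at 0.47 and mGFP at 1.10. That matching gave 47 lower genes in set 1, and 1 comparison cell per proliferating cell gave 162. The share was 8.02% in set 2 with 4 or more of the 8 genes and 5.57% with 6 or more, and with thinned cells 0.494% in set 1 and 1.91% in set 2. With a pseudocount of 1 CPM, the S list median was 3.18 in set 1 and 2.29 in set 2, the G2/M median in set 2 was 3.40, and the genes past 2-fold numbered 677 higher and 258 lower in set 1 and 290 and 106 in set 2. Thinned cells gave 783 higher and 549 lower in set 1, where few UMIs remained. The cause of the other moves was not tested. Of list medians past 2-fold, 150 of 168 recomputed values in set 1 and 124 of 131 in set 2 were still past it the same way. No paired analysis was possible because there is 1 sample per group.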

Other observations

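Genes of energy supply and protein synthesis lay close to the comparison cells in both sets. Of ribosomal protein genes, 95 could be compared in set 1 and 96 in set 2, and 0 were past 2-fold, with medians of 0.05 and 0.04. The respiratory chain list had 0 of 81 and 0 of 83 genes past 2-fold and medians of 0.14 and 0.13, and the glycolysis list 0 of 14 and 0 of 12 with medians of −0.06 and −0.10. Within the latter, Aldoa, a glycolytic aldolase, stood at 304 CPM (276 to 335) against 485 CPM (464 to 507) in set 1 and at 348 CPM (340 to 357) against 657 CPM (650 to 664) in set 2, and its medians per cell were 287 against 485 and 265 against 461 CPM. Of the polyamine list 0 of 9 and 0 of 8 genes passed 2-fold, Azin1, which restrains antizyme, being at −0.99 and −0.40.

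B2m, the light chain of MHC class I, stood at 6322 against 9995 CPM in set 1 and 1804 against 3345 CPM in set 2 (−0.66 and −0.89), short of 2-fold. In set 1, 3 of 10 genes of the MHC class I list were 2-fold or more higher, against 4.9% of all genes. Among them was Psmb9, an immunoproteasome subunit, at 209 against 85.9 CPM (1.19). Its log2 ratio fell to 0.87 in the lowest alternative. In set 2, 0 of 5 genes of the list were 2-fold higher. The list as a whole summed lower in the proliferating cells, at 19729 against 22347 CPM in set 1 and 3196 against 5057 CPM in set 2. The immediate early gene Fos stood at 112 against 341 CPM in set 1 and 798 against 606 CPM in set 2, with medians per cell of 43.7 against 88.7 and 438 against 278 CPM. The difference between the sets was not tested.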
